A study of Mus musculus with 4 samples.

Results

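Dendritic cells were sought among droplet barcodes of mouse tumour libraries, and 104 barcodes were taken as dendritic cells out of 10942 barcodes with at least 1000 UMIs (unique molecular identifiers, each standing for 1 captured RNA molecule). A member had at least 1000 UMIs, at most 20% mitochondrial UMIs, under 0.3% of UMIs from the pigment genes Dct, Pmel, Mlana and Tyrp1, and at least 1 UMI of the leukocyte genes Ptprc or Cd74. It also had at least 3 UMIs summed over Flt3, Zbtb46, Xcr1, Clec9a, Cd209a, Ccl22, Siglech and Ccr9, at most 2 UMIs of the complement genes C1qa, C1qb and C1qc, none of Cd3d, Cd3e or Cd3g, and at most 1 of the B cell gene Cd79b. A member with at least 2 UMIs of Siglech and Ccr9 together was called plasmacytoid, and any other was called conventional. This gave 32 plasmacytoid and 72 conventional dendritic cells. Members were thus chosen by measured UMIs of all of these genes, so their values below are a description and were not tested.

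The series compares tumours of C57Bl6 mice, aged 6 to 8 weeks, that were either labelled Control or treated with what the labels call Nanocapsule, with 2 libraries in each group. The series title names enzyme nanocapsules and T cell immunity. The labels give tumour as the tissue and cancer cells as the cell type, and they do not name the tumour line, the enzymes, the dose or which animals the libraries came from. P-values therefore measure the spread between these libraries, which may be technical. Values for single libraries are given throughout in the order Control 1, Control 2, Nanocapsule 1 and Nanocapsule 2.

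Dendritic cells take up antigen, carry it to lymph nodes and present it to T cells. Conventional dendritic cells fall into a type 1 branch, which needs the factors IRF8 and BATF3, carries XCR1 and CLEC9A and is specialised in presenting the antigen of dying cells to CD8 T cells, and a type 2 branch, which carries CD209a and MGL2 and mainly primes CD4 T cells. After taking up tumour material, cells of both branches can enter a mature state in which they express CCR7, the receptor that guides them to lymph nodes, the actin bundler fascin (FSCN1), and the chemokine CCL22. Plasmacytoid dendritic cells depend on the E protein TCF4, sense viral nucleic acid through TLR7 and TLR9 and are known for secreting type I interferon.

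The members came from all libraries, with 19, 46, 14 and 25 cells, of which 8, 16, 4 and 4 were plasmacytoid and 11, 30, 10 and 21 conventional. They were 104 of 1045 barcodes that met the limits on UMIs, mitochondrial, pigment and leukocyte genes, called immune barcodes below. The limit on the 4 pigment genes kept barcodes rich in them out, and 52 of the 104 members held none of their UMIs. Members held 2482 to 40332 UMIs, with library medians of 5411, 9991, 7542.5 and 14847. Plasmacytoid members had a lower median (6243.5 UMIs) than conventional ones (11001), and a higher median mitochondrial share (2.63% against 1.28%). At 1000 UMIs drawn from each cell, the median number of genes detected was 681.5 in plasmacytoid and 613 in conventional members. No member barcode occurred among the barcodes of at least 1000 UMIs of another library, whereas 52 barcodes of that depth were shared by a pair of libraries. No doublet caller was run, and the limits on C1q, Cd3 and Cd79b removed 9 barcodes that otherwise met the marker sum, 3 by C1q and 6 by Cd3 or Cd79b.

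Siglech, which encodes the sialic acid-binding lectin Siglec-H, and Ccr9, the receptor for the gut and thymus chemokine CCL25, separated the classes widely. Levels are given as CPM, UMIs of the gene in 1000000 UMIs of all cells of the class in that library. Siglech stood at 3215, 1979, 2849 and 3059 CPM in plasmacytoid cells, while conventional cells held 2 UMIs in all. Ccr9 stood at 1663, 1032, 1841 and 878 CPM in plasmacytoid cells and at 1 UMI in conventional cells. Both genes were thus present in every plasmacytoid sum, and 31 of 32 plasmacytoid cells held both. The cell with the fewest held 3 Siglech UMIs, no Ccr9 UMI and 1 Xcr1 UMI, the next lowest held 5 UMIs of the pair, the median was 23 and the highest 53. Of the 72 conventional cells, 69 held none and 3 held 1.

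The other 6 markers overlapped more between the classes. Ccl22, a ligand of CCR4 on regulatory T cells, was at 0 in all 32 plasmacytoid cells and at 328, 274, 560.0 and 566 CPM in conventional cells, where it came from 2, 6, 5 and 9 cells. Zbtb46, a transcription factor of conventional dendritic cells, had 1 UMI in plasmacytoid cells and 181, 119, 76.9 and 94.4 CPM in conventional cells. Xcr1, the receptor for XCL1 from activated CD8 T cells, also had 1 UMI in plasmacytoid cells and 102, 44.3, 76.9 and 249 CPM in conventional cells. Clec9a, a receptor for exposed actin of dead cells, did not follow the split, with 249, 92.4, 175 and 121 CPM in plasmacytoid and 181, 69.2, 98.8 and 215 CPM in conventional cells. It was seen in 17 of 32 plasmacytoid and 24 of 72 conventional cells. Flt3, the receptor of the dendritic cell growth factor FLT3L, stood at 139, 177, 0 and 60.6 CPM in plasmacytoid and 215, 222, 318 and 126 CPM in conventional cells. Cd209a, a lectin of the DC-SIGN family, stood at 83.1, 100.1, 0 and 121 CPM against 531, 667, 285 and 304 CPM. The 5 markers given for this cell class, Flt3, Cd209a, Xcr1, Ccl22 and Siglech, were therefore all detected, and 4 of them in both classes. Free RNA in droplets of at most 100 UMIs carried the 8 markers at 8.78, 10.8, 4.64 and 8.33 CPM summed.

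**Figure D1:**
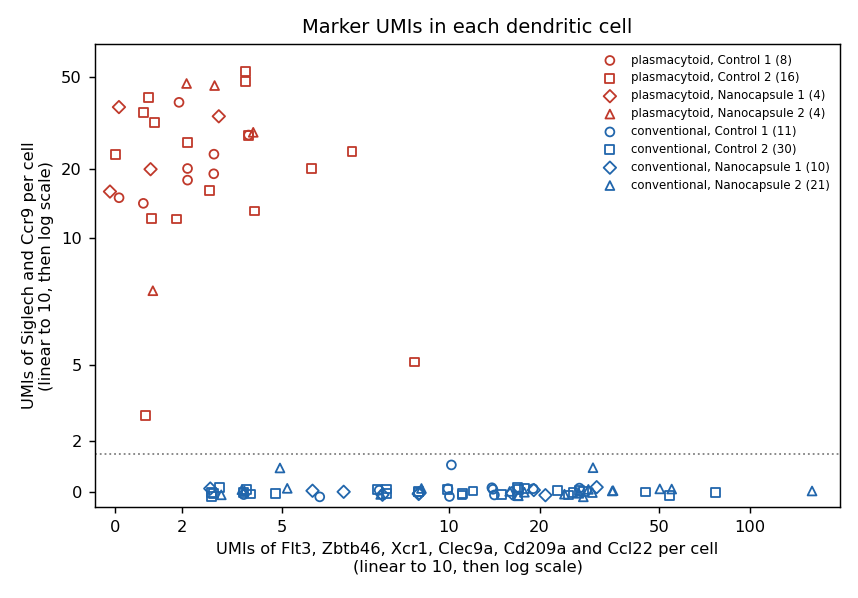
Each point is 1 of the 104 members, placed by its UMIs of Siglech plus Ccr9 (vertical axis) and of the other 6 rule markers summed (horizontal axis), with a small random shift so that equal counts do not hide each other. Colour shows the class and marker shape the library. The 69 conventional cells with no Siglech or Ccr9 UMI form the bottom row and the 31 plasmacytoid cells that hold both genes lie above them, with 1 cell at 3 Siglech UMIs between.

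The limit of 3 marker UMIs cut through few cells. At a sum of exactly 3 sat 6 members, all conventional, with a median of 5234 UMIs, and 7 sat at 4. Just outside, 9 barcodes met every other limit with a marker sum of 2, with a median of 5777 UMIs, and 25 had a sum of 1.

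The start regions of the genes that mark the plasmacytoid class are shown because TCF4, the factor that defines that lineage, belongs to the E proteins, whose textbook recognition core is the E-box CANNTG. The 250 bases upstream of the RefSeq start of Siglech, Ccr9 and Klk1 (a kallikrein protease and the gene of the plasmacytoid list with the most UMIs among those at 0 in conventional cells) are printed on the gene's strand with CANNTG in capitals. This motif is its own reverse complement, so both strands are covered. The windows are chr7:55767934-55768183 (Siglech), chr9:123766961-123767210 (Ccr9) and chr7:44225110-44225359 (Klk1), all on the plus strand of GRCm38.
Siglech: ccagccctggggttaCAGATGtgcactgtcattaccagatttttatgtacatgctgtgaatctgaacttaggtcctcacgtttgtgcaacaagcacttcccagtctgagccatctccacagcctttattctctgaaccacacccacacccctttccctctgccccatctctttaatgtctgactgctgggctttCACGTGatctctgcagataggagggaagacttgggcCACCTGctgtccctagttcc
Ccr9: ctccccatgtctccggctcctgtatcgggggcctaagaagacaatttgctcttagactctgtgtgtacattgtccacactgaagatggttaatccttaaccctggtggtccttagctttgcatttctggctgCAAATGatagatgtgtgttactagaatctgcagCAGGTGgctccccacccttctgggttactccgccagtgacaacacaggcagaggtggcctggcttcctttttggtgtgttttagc
Klk1: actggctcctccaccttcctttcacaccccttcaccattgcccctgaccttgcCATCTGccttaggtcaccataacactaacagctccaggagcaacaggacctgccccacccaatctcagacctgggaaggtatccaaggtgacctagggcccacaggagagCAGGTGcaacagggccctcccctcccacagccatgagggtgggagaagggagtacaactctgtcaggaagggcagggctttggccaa
The Siglech window held 3 such motifs, the Ccr9 window 2 and the Klk1 window 2. Of 32851 upstream windows of the same length in RefSeq, 66.2% held at least 1, 31.8% at least 2 and 12.2% at least 3, so these letters are common and a match is a description only.

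Plasmacytoid and conventional cells of the same libraries differed in 1295 of 5769 genes tested (22.4%), of which 538 were higher (9.33%) and 757 lower (13.1%) in plasmacytoid cells. The test was edgeR's quasi-likelihood test on UMI sums per library with the library as a block, and adjusted p refers to Benjamini-Hochberg adjustment over all genes tested. Log2 differences are plasmacytoid over conventional, and their median over all genes tested was -0.15. In the plasmacytoid marker list, 27 of the 29 members tested (30 listed) were higher and none lower, with a median of 4.36. The list was chosen with results of these data known and most of its genes are textbook markers of the class that Siglech defines, so its direction is no independent evidence.

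Single lineage factors differed strongly between the classes, in both directions. Tcf4 (the E protein of the plasmacytoid lineage) stood at 1996, 2179, 2455 and 2302 CPM in plasmacytoid and 203, 161, 65.9 and 89.1 CPM in conventional cells, and was higher by 3.84 (SE 0.23, adjusted p = 1.5e-17). Every plasmacytoid sum lay above every conventional sum. Irf8, which both plasmacytoid and type 1 conventional cells need, stood at 3603, 2957, 3595 and 3967 CPM against 441, 615, 604 and 1348 CPM, a difference of 1.95 (SE 0.20, adjusted p = 2.1e-10). Id2, the inhibitor of E proteins that opposes TCF4, went the other way, with 805 UMIs in conventional and 3 in plasmacytoid cells, 64.5-fold (95% counting interval 22.01 to 314) lower. Batf3 (chr1:191097847-191108945 in GRCm38), the type 1 factor, was at 0 in plasmacytoid cells against 145 UMIs, at least 11.6-fold lower. Spi1, which encodes the myeloid factor PU.1, was lower by 2.76 (SE 0.30, adjusted p = 7.7e-10). Over the whole list of dendritic transcription factors, 10 of 29 tested members (30 listed) were higher and 9 lower, with a median of -0.33.

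Several genes of the plasmacytoid surface and granules were higher in plasmacytoid cells. Bst2 (tetherin, a plasmacytoid surface antigen, at chr8:71534255-71537456) stood at 4989, 4043, 4909.7 and 3422 CPM against 283, 515, 209 and 197 CPM and was higher by 3.56 (SE 0.22, adjusted p = 6.6e-17). Ctsl, the lysosomal protease cathepsin L, stood at 1718, 1247, 1490.4 and 1029.6 CPM against 11.3, 22.2, 32.9 and 15.7 CPM and was higher by 5.61 (SE 0.34, adjusted p = 2.5e-15). The groups of sums did not overlap in either gene. Ly6d, a surface protein of lymphoid progenitors, had 492 UMIs in plasmacytoid and 2 in conventional cells, a ratio of 1023-fold (95% counting interval 282 to 8469). Klk1 stood at 2023, 601, 1403 and 1211 CPM and Mctp2, a calcium-binding membrane protein, at 1026, 801, 877 and 1544 CPM. Both were at 0 in all 72 conventional cells, so that Klk1 was at least 309-fold and Mctp2 at least 294-fold higher (bounds against 3 counts over the 4 libraries). Grm8, a glutamate receptor, was likewise at 99 UMIs against 0, at least 137-fold higher. With DESeq2 the adjusted p was 0.074 for Klk1, 0.11 for Grm8 and 0.05 for Ly6d.

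Nucleic acid sensing and interferon genes did not move as 1 group. Tlr7, the receptor for single-stranded RNA, had 56 UMIs in plasmacytoid cells and 1 in conventional cells, 233-fold (95% counting interval 40.1 to 9358) higher. Unc93b1, the chaperone that carries such receptors to endosomes, was higher by 1.37 (SE 0.24, adjusted p = 1.8e-05), a call that was lost when each cell was thinned to 1000 UMIs (adjusted p = 0.12). Ifnar2, a chain of the type I interferon receptor, was higher by 1.88 (SE 0.26, adjusted p = 1.7e-07). Irf7, the factor that drives type I interferon, was higher by 1.14 (SE 0.40, adjusted p = 0.041) with all libraries, but not without Control 1 (adjusted p = 0.31), Nanocapsule 1 (0.062) or Nanocapsule 2 (0.11). Among interferon stimulated genes 3 of 24 tested (28 listed) were higher and 4 lower, and among pattern receptors 4 of 19 tested (26 listed) were higher and 3 lower. Over all genes tested 9.33% were higher and 13.1% lower, so counts this small set neither list clearly apart. Of the interferon gamma response genes, 4 of 17 tested (21 listed) were lower and none higher. Gbp2, an interferon-induced GTPase of a family with near-identical copies, was at 0 in plasmacytoid cells against 207 UMIs in conventional cells, at least 16.6-fold lower.

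Of the secretory pathway genes, 6 of 25 were higher in plasmacytoid cells and none lower, with a median of 0.45. Hsp90b1, the chaperone that folds Toll-like receptors, stood at 1136, 801, 1447 and 969 CPM against 407, 390.5, 219.6 and 357 CPM and was higher by 1.25 (SE 0.23, adjusted p = 3.1e-05). Xbp1, the factor that expands the endoplasmic reticulum in secreting cells, was higher by 1.26 (SE 0.24, adjusted p = 8.2e-05). Dnajc7, a co-chaperone of HSP70 and HSP90, was higher by 2.97 (SE 0.24, adjusted p = 9.9e-14).

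**Figure D2:**
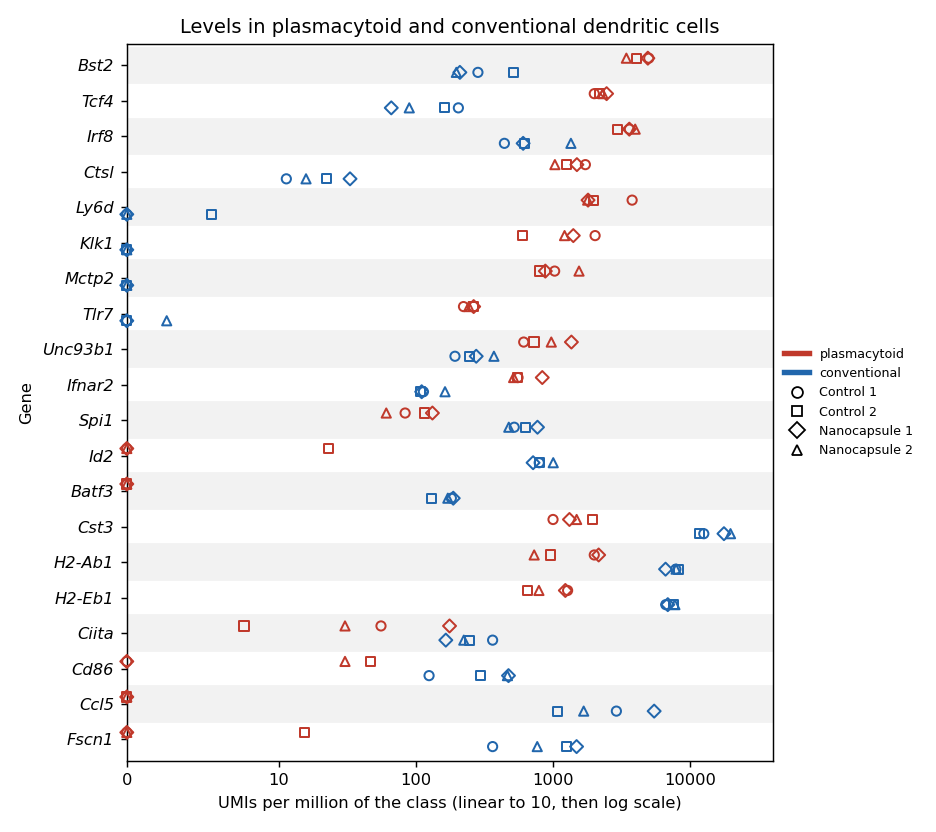
CPM of 20 genes in plasmacytoid and conventional cells, 1 point per library and class, on an axis that is linear up to 10 CPM and logarithmic above. Bst2, Tcf4, Irf8 and Ctsl lie higher in every plasmacytoid sum, Klk1 and Mctp2 lie at 0 in every conventional sum, and Cst3, Spi1, Id2 and H2-Eb1 lie lower in every plasmacytoid sum.

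Antigen presentation was higher in conventional cells. Of the class II genes, 11 of 14 tested (15 listed) were lower in plasmacytoid cells and 1 higher, with a median of -1.92. H2-Ab1, a chain of the class II molecule I-A (chr17:34257689-34269419), stood at 1996, 955, 2148 and 727 CPM in plasmacytoid and 7855, 8197, 6610.3 and 7891 CPM in conventional cells and was lower by 2.74 (SE 0.46, adjusted p = 0.0017). H2-Eb1 was lower by 3.22 (SE 0.52, adjusted p = 0.0013) and H2-Aa by 2.12 (SE 0.42, adjusted p = 0.004). Reads of H2 genes can be split between near-identical copies, so their single values are uncertain. Ciita, the master switch of class II transcription, was lower by 2.85 (SE 0.54, adjusted p = 0.00017). Cst3 (cystatin C, a protease inhibitor abundant in conventional dendritic cells) stood at 998, 1940.4, 1315 and 1484 CPM against 12567, 11648, 17635 and 19681 CPM and was lower by 3.68 (SE 0.28, adjusted p = 5.7e-09). Class I presentation genes differed less, with 1 of 20 higher, 7 lower and a median of -0.36. B2m, the light chain of class I, did not pass, at 2522, 2972, 2718 and 2544 CPM against 2452, 2398, 3997 and 3136 CPM and a log2 difference of -0.41 (SE 0.18, adjusted p = 0.11), although it did without Control 2 (adjusted p = 0.0033). Psmb8, an immunoproteasome subunit, was lower by 1.21 (SE 0.25, adjusted p = 0.00044), a call lost when cells were thinned to 1000 UMIs (adjusted p = 0.5).

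Many costimulation and chemokine genes were lower in plasmacytoid cells. Of 13 costimulation and checkpoint ligands tested (18 listed), 8 were lower and none higher, with a median of -2.81 (-2.53 with genes at 0 in 1 class at their bound). Cd86, a ligand of CD28, had 7 UMIs in plasmacytoid and 338 in conventional cells and was lower by 3.68 (SE 0.47, adjusted p = 7.6e-08). Cd80, the other CD28 ligand, was at 0 against 119 UMIs, at least 9.54-fold lower. Cd274, which encodes PD-L1, had 3 UMIs against 279, 22.4-fold (95% counting interval 7.58 to 109) lower. Among chemokines and cytokines 8 of 18 tested (25 listed) were lower and 1 higher. Ccl5, which attracts T cells, was at 0 in plasmacytoid cells and at 2893, 1083, 5457 and 1670.0 CPM in conventional cells, where it came from 3, 8, 5 and 5 cells, at least 143-fold lower. Ccl17, a CCR4 ligand like CCL22, was at 0 against 195 UMIs, at least 15.6-fold lower. Il1b, the inflammatory cytokine interleukin 1 beta, was lower by 4.77 (SE 0.90, adjusted p = 0.0024). Of the mature migratory markers 21 of 25 tested (30 listed) were lower and none higher. Fscn1 had 2 UMIs against 908 and Ccr7 2 against 691, 109-fold (95% counting interval 30.1 to 903) and 83.1-fold (95% counting interval 22.9 to 688) lower. With DESeq2 the adjusted p of Fscn1 was 0.18.

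Genes of glycolysis and of cell division were lower in plasmacytoid cells, with 10 of 17 tested (18 listed) and 10 of 16 tested (20 listed) respectively, and 1 and 0 higher. Gapdh, a glycolytic enzyme, was lower by 1.42 (SE 0.25, adjusted p = 2.6e-05). Ldha, the lactate dehydrogenase subunit that forms lactate from pyruvate, stood at 582, 300.3, 1096 and 303 CPM against 678, 753, 637 and 1051 CPM and was lower by 1.00 (SE 0.25, adjusted p = 0.0027), a call lost without Control 2 (adjusted p = 0.1) or Nanocapsule 2 (0.098). H2afz, a histone variant, was lower by 2.22 (SE 0.26, adjusted p = 4e-08) and Tubb5, a tubulin, by 2.29 (SE 0.27, adjusted p = 4.8e-09). Among haem and oxidative stress genes, 3 of 22 tested (25 listed) were higher and 4 lower, beside 9.33% and 13.1% of all genes tested. The ferritin chains moved in opposite directions, and Fth1 was higher by 0.80 (SE 0.20, adjusted p = 0.0038) while Ftl1 was lower by 0.82 (SE 0.17, adjusted p = 0.00027). Hmox1 (haem oxygenase 1) had 2 UMIs in plasmacytoid and 7 in conventional cells, and Cat (catalase, which breaks down hydrogen peroxide) had 10 and 54. Neither passed the test. Immediate early genes, which respond to tissue dissociation, were lower in 9 of 18 and higher in none, and Junb was lower by 2.29 (SE 0.25, adjusted p = 9.5e-10).

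Markers of other cells were mostly low in both classes, with exceptions in plasmacytoid cells. The 16 macrophage markers, whose C1q members the rule limits, summed to 443, 416, 263 and 485 CPM in plasmacytoid cells and 67.8, 172, 165 and 131 CPM in conventional cells, against 18519 to 26860 CPM in C1q macrophages of the same libraries. Their level in near-empty droplets was 2154 to 2378 CPM. Apoe, the lipid carrier that macrophages express at high level, had 41 UMIs in plasmacytoid and 7 in conventional cells, but 1 cell held 23 of 24 UMIs in Control 2 and 1 cell held 12 of 13 in Nanocapsule 2. That difference was lost with thinned cells (adjusted p = 0.79). Monocyte markers summed to 4351, 8101, 4340 and 4633 CPM in plasmacytoid cells against 1074 to 1554 CPM in conventional cells. Plac8 and Ly6c2 are on the monocyte and the plasmacytoid list alike. Pooled over libraries, Plac8 stood at 2931 CPM in plasmacytoid and 599 CPM in conventional cells, and Ly6c2 at 1844 and 81.3 CPM. In Control 2, 1 plasmacytoid cell of 13627 UMIs held all 301 Lyz2 UMIs (lysozyme of monocytes) of its class beside 5 Siglech, 7 Ccr9 and 29 Tcf4 UMIs and no C1q UMI. That cell also held 18 UMIs of F13a1 and 19 of Ccr2, both on the monocyte list, but 1 of Ly6c2. It was the cell with 23 Apoe UMIs, and its mitochondrial share of 6.13% was the highest of all members. Whether it is a mixed barcode was not tested. Ly6c2, a surface protein of monocytes and plasmacytoid cells alike, stood at 1608, 2233, 921 and 1211 CPM against 22.6, 99.7, 0 and 97.0 CPM and was higher by 4.38 (SE 0.57, adjusted p = 0.00017). Lymphoid genes known from plasmacytoid cells were also present: Cd4 had 57 UMIs against 1, and Ighm, the immunoglobulin mu chain, was higher by 2.79 (SE 0.38, adjusted p = 2.6e-06). The 12 T cell markers summed to 1053, 862, 1008 and 1030 CPM in plasmacytoid cells and 55.4 to 124 CPM in conventional cells. B cell markers summed to 1247, 608, 833 and 727 CPM and plasma cell markers to 693, 647, 1096 and 545 CPM, against 43.9 to 147 and 143 to 271 CPM in conventional cells. Natural killer cell markers summed to at most 53.9 CPM in plasmacytoid and to 158, 205, 176 and 307 CPM in conventional cells. Pigment cell markers summed to 121 to 333 and 85.9 to 215 CPM, against 8995 to 11492 CPM in near-empty droplets, and the rule limits 4 of these genes. Fibroblast, erythroid and mast cell markers were at 0 in plasmacytoid cells, neutrophil markers had at most 1 UMI in any sum of either class, and conventional cells of Nanocapsule 1 held 35 erythroid UMIs. The part of other cells' RNA in the class difference was not tested.

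Conventional cells themselves fell into 3 groups by which of Xcr1 plus Clec9a, Cd209a and Ccl22 had the most UMIs. Xcr1/Clec9a led in 20 cells (3, 5, 2 and 10 by library), Cd209a in 29 (6, 16, 2 and 5) and Ccl22 in 19 (2, 6, 5 and 6), and 4 cells were tied or held none. Xcr1 or Clec9a was seen in 24 conventional cells, Cd209a in 33 and Ccl22 in 22. Of these, 6 held both Xcr1 or Clec9a and Cd209a, 2 held Xcr1 or Clec9a and Ccl22, and 1 held Cd209a and Ccl22. Only Control 2 and Nanocapsule 2 had at least 5 cells of all 3 groups, so the groups were compared within these libraries, each against the mean of the other groups. The test again was edgeR's with the library as a block, on 6 sums with 2 residual degrees of freedom. All values below are given for Control 2 and then Nanocapsule 2.

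The Ccl22-led cells stood furthest apart, with 524 of 1778 genes called (29.5%), 319 of them higher (17.9%) and 205 lower (11.5%). Of the mature migratory markers, 23 of 24 tested (30 listed) were higher and none lower, with a median of 5.21 against -0.06 over all genes tested. Fscn1 (chr5:142960343-142973185) stood at 5419.9 and 3284 CPM in Ccl22-led cells and at 0 in both other groups, at least 796-fold higher. Ccl5 stood at 4106 and 7164 CPM with 1 UMI elsewhere. Ccr7 stood at 3111 and 2935 CPM and was higher by 8.82 (SE 0.65, adjusted p = 7e-05), and the 16 UMIs outside these cells came from 1 Cd209a-led cell. Cacnb3, a calcium channel subunit often listed among mature dendritic markers, stood at 899 and 765 CPM and at 0 elsewhere, at least 155-fold higher (adjusted p = 9.9e-05 with edgeR and 0.096 with DESeq2). Ccl17 stood at 263 and 1541 CPM, from 1 and 2 cells.

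Ligands for T cells and class I genes were higher in the same cells. Of 10 costimulation and checkpoint ligands tested (18 listed), 8 were higher and 1 lower. Cd274 (chr19:29367455-29388095) stood at 649.8 and 1035 CPM in Ccl22-led, 12.4 and 76.8 CPM in Xcr1/Clec9a-led and 100.3 and 356 CPM in Cd209a-led cells, higher by 3.29 (SE 0.40, adjusted p = 0.00044). Cd83, which stabilises class II and CD86 at the surface, was higher by 1.499 (SE 0.31, adjusted p = 0.0067). Ly75, the antigen uptake receptor DEC-205, was higher by 4.06 (SE 0.44, adjusted p = 0.00023). Among class I presentation genes 8 of 17 tested (20 listed) were higher and 1 lower. B2m stood at 4341 and 5510.4 CPM against 939 and 2602 CPM and 1768 and 1948 CPM and was higher by 1.59 (SE 0.27, adjusted p = 0.0027), and H2-K1, a class I heavy chain, was higher by 1.79 (SE 0.33, adjusted p = 0.0035). Nfkbia, an inhibitor of NF-kappa B that NF-kappa B itself induces, was higher by 1.81 (SE 0.28, adjusted p = 0.0014).

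Of the class II genes, 3 of 14 tested (15 listed) were higher and 3 lower, beside 17.9% and 11.5% of all genes tested. The class II median was -0.20 against -0.06 over all genes tested. H2-Ab1 stood at 3567 and 2969 CPM in Ccl22-led cells against 7685 and 9812 CPM in Xcr1/Clec9a-led and 10933 and 8339 CPM in Cd209a-led cells and was lower by 1.37 (SE 0.23, adjusted p = 0.0023). That call was lost when cells were thinned to 1000 UMIs (adjusted p = 0.38). H2-DMb1, a chain of the peptide loading chaperone H2-DM, was lower by 4.32 (SE 0.47, adjusted p = 0.00023). Type 1 markers were lower in 6 of 13 tested (19 listed) and higher in 2, with a median of -1.62, and type 2 markers were lower in 5 of 12 tested (22 listed) and higher in 2, with a median of -2.92. At 0 in Ccl22-led cells were 5 of the type 1 and 2 of the type 2 markers tested. Among these, Naaa, a type 1 marker, had 453 UMIs in the other groups (at least 43.3-fold lower), Wdfy4, needed for cross-presentation, 283 (at least 27.0-fold lower), and Clec10a, a lectin of type 2 cells, 155 (at least 14.8-fold lower). In the other direction, Id2 was higher by 2.03 (SE 0.36, adjusted p = 0.003) and Tmem176a, a membrane protein, by 4.42 (SE 0.53, adjusted p = 0.00044). Irf8 did not pass the test, with a log2 difference of 0.45 (SE 0.47, adjusted p = 0.51). Ccr2, the receptor that brings monocyte-derived cells to tissue, was at 0 against 168 UMIs, at least 16.0-fold lower. Secretory pathway genes were lower in 7 of 21 tested (25 listed) and proliferation genes in 5 of 10 tested (20 listed), with none higher in either list. Hspa5, the chaperone BiP, was lower by 3.24 (SE 0.53, adjusted p = 0.0022), and Mki67, the proliferation antigen Ki-67, had 2 UMIs against 85.

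In Xcr1/Clec9a-led cells 151 of 1778 genes were called (8.49%), 66 higher (3.71%) and 85 lower (4.78%). Type 1 markers were higher in 11 of 13 tested (19 listed) and lower in none, with a median of 2.93 against 0.07 over all genes tested. Irf8 (chr8:120736358-120756694) stood at 1977 and 1992 CPM, against 47.5 and 368 CPM in Cd209a-led and 677 and 765 CPM in Ccl22-led cells, and was higher by 2.51 (SE 0.45, adjusted p = 0.011). The call was lost with thinned cells (adjusted p = 0.38). Cst3 (chr2:148871722-148875692) stood at 28455 and 25662 CPM, against 2812 and 6795 CPM in Cd209a-led and 14780.3 and 17869 CPM in Ccl22-led cells, and was higher by 1.65 (SE 0.24, adjusted p = 0.007). Naaa had 375 UMIs against 78 in the other groups, a pooled ratio of 7.23-fold (95% counting interval 5.65 to 9.35). Wdfy4 had 237 against 46 UMIs, and Itgae, the integrin chain CD103, 60 against 1. Cxcl9, which draws CXCR3-bearing T cells, was at 0 in all 3 groups of Control 2. In Nanocapsule 2 it stood at 672 CPM in Xcr1/Clec9a-led, 154 CPM in Cd209a-led and 169 CPM in Ccl22-led cells. Its call (adjusted p = 0.046) was lost with DESeq2 (0.36) and with no library block (0.29). Monocyte markers were higher in 2 of 5 tested (15 listed) and lower in none, with a median of 2.94. Ly6c2 had 48 UMIs against 9 and was higher by 4.92 (SE 1.15, adjusted p = 0.035). Ccr2 had 57 UMIs against 111, with a fitted difference of 3.37 (SE 0.78, adjusted p = 0.034) against the mean of a Cd209a-led group that was higher and a Ccl22-led group at 0. Both calls were lost with DESeq2 (adjusted p = 0.49 and 0.079). Of immediate early genes, 2 of 15 tested (18 listed) were higher and 2 lower. Egr1 had 110 UMIs against 122, all of the latter in Cd209a-led cells, as Ccl22-led cells held 0. Its fitted difference of 4.27 (SE 0.68, adjusted p = 0.0097) is against the mean of these groups. The pooled ratio was 1.36-fold (95% counting interval 1.04 to 1.77). Tmem176a and Tmem176b, a pair of related membrane proteins, were lower, with 1 UMI against 195 for Tmem176a, as were 11 of 24 mature migratory markers tested.

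In Cd209a-led cells 139 of 1778 genes were called (7.82%), 101 higher (5.68%) and 38 lower (2.14%). Type 2 markers were higher in 7 of 12 tested (22 listed) and lower in none, with a median of 2.88 against 0.06 over all genes tested. Mgl2 (the lectin CD301b, at chr11:70130329-70137550) stood at 855 and 1604 CPM with 2 UMIs in the other groups, a ratio of 244-fold (95% counting interval 67.1 to 2028), and 2 cells held all 135 of its UMIs in Nanocapsule 2. Clec10a had 148 UMIs against 7, and Itgam, the integrin chain CD11b, 42 against 6. Cd7, a surface protein of lymphoid and some dendritic cells, stood at 469.6 and 131 CPM and was higher by 3.47 (SE 0.51, adjusted p = 0.0094). Il1r2, a decoy receptor for interleukin 1, was higher by 2.70 (SE 0.44, adjusted p = 0.012). Monocyte markers were higher in 3 of 5 tested (15 listed) and lower in none, with a median of 2.56, among them Ccr2, with 111 UMIs against 57, and Lyz2, with 109 against 47. Immediate early genes were higher in 7 of 15 tested (18 listed) and lower in none. Irf8 was lower by 2.96 (SE 0.56, adjusted p = 0.016), Id2 was lower by 3.24 (SE 0.44, adjusted p = 0.0083) and Batf3 was lower by 2.44 (SE 0.47, adjusted p = 0.017).

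**Figure D3:**
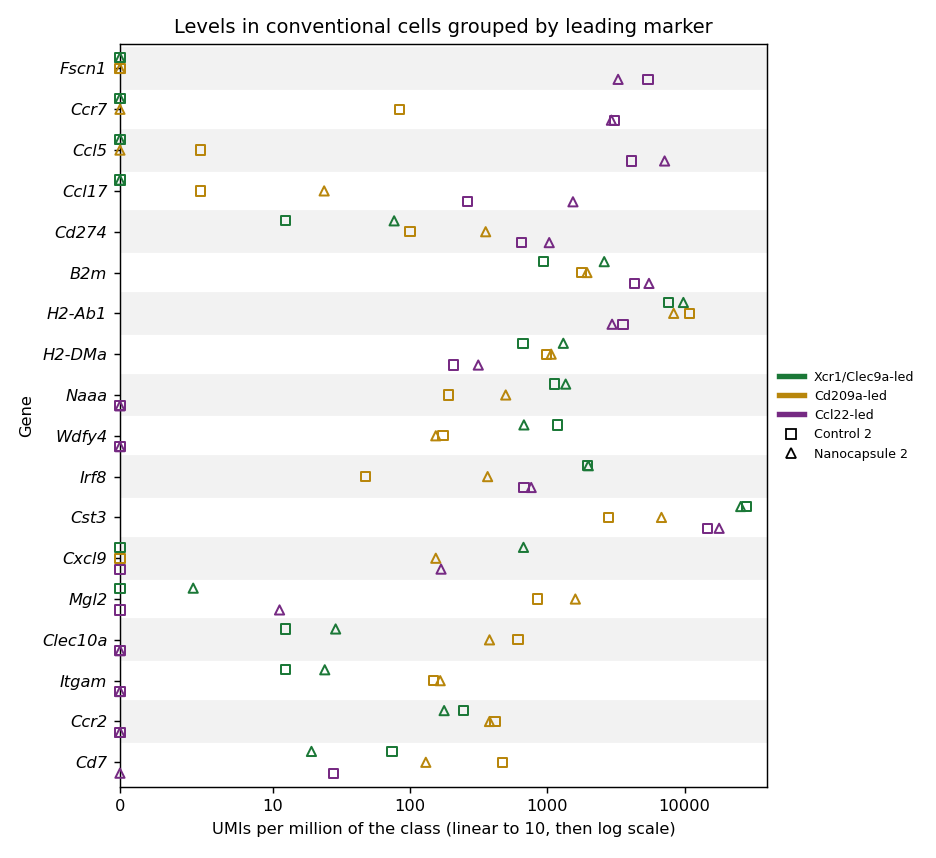
CPM of 18 genes in Xcr1/Clec9a-led, Cd209a-led and Ccl22-led conventional cells, 1 point each for Control 2 and Nanocapsule 2, the libraries with at least 5 cells of every group, on an axis that is linear up to 10 CPM and logarithmic above. Fscn1 lies at 0 outside Ccl22-led cells, Irf8 and Cst3 lie highest in Xcr1/Clec9a-led cells, and Mgl2 and Cd7 lie highest in Cd209a-led cells.

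To place the conventional cells among the tumour's myeloid cells, they were compared with 251 C1q macrophages (at least 3 C1q UMIs) and 147 C1q-low monocytic barcodes (at least 3 UMIs of Csf1r, Ccr2, Ly6c2 or Fcgr1 and no dendritic marker), in the same fit. Conventional cells differed from macrophages in 2016 of 5769 genes tested (34.9%; 937 higher, 16.2%; 1079 lower, 18.7%) and from monocytic barcodes in 1595 of 5765 (27.7%; 682 higher, 11.8%; 913 lower, 15.8%). Mature migratory markers were higher in 21 of 25 against macrophages and in 19 of 25 against monocytic barcodes, with medians of 4.05 and 3.53. Fscn1 was at 0 in both other classes, at least 1242-fold and at least 389-fold higher in conventional cells. Cst3 was higher by 3.36 (SE 0.26, adjusted p = 2.8e-09) against macrophages and by 3.21 (SE 0.26, adjusted p = 1.1e-08) against monocytic barcodes, and Irf8 by 2.05 (SE 0.20, adjusted p = 1.8e-11) and 1.51 (SE 0.21, adjusted p = 1.2e-07).

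Class II genes were higher in conventional cells in 10 of 14 against either class, and lower in 3 and 2. H2-Ab1 stood at 7855, 8197, 6610.3 and 7891 CPM in conventional cells and 1418, 1124, 1535 and 2362 CPM in macrophages, a difference of 2.18 (SE 0.42, adjusted p = 0.0022). Class I presentation genes were higher in 15 of 20 against macrophages and 10 of 20 against monocytic barcodes, such as Psmb8 by 1.95 (SE 0.22, adjusted p = 7.1e-09) and 1.37 (SE 0.22, adjusted p = 1.1e-05). Proliferation genes were higher in 15 of 16 against monocytic barcodes, but in 1 of 16 against macrophages, where 5 were lower. Tubb5 was higher by 1.71 (SE 0.20, adjusted p = 4.2e-09) against monocytic barcodes.

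Genes of haem, iron and glucose use were lower. Of haem and oxidative stress genes 15 of 22 were lower against macrophages and 11 of 22 against monocytic barcodes, while 1 and 2 were higher. Hmox1 had 7 UMIs in conventional cells and 4949 in macrophages and was lower by 7.30 (SE 0.40, adjusted p = 2e-15). Fth1 stood at 3718, 4259, 2855 and 2318 CPM in conventional cells and 31929.8, 26035, 45330.3 and 17985 CPM in macrophages and was lower by 3.26 (SE 0.21, adjusted p = 6.5e-13). Glycolysis genes were lower in 14 of 17 against macrophages and 13 of 17 against monocytic barcodes. Against macrophages Ldha was lower by 1.08 (SE 0.20, adjusted p = 4.2e-05), and against monocytic barcodes it was lower by 0.58 (SE 0.21, adjusted p = 0.03). Arg1 (arginase 1), Ccl7 (a monocyte attractant) and Trem2 (a lipid receptor of tumour macrophages) had 0 UMIs in conventional cells against 2305, 6786 and 2067 in macrophages. They were at least 187-fold, 551-fold and 168-fold lower. The monocytic barcodes also held natural killer cell genes, such as 400 UMIs of Gzma (granzyme A) against 0 in conventional cells, so they are not a pure monocyte class.

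The share of dendritic cells did not separate the treatment groups. Of immune barcodes, 7.79% (4.75 to 11.9), 13.6% (10.1 to 17.7), 6.51% (3.61 to 10.7) and 10.1% (6.63 to 14.5) were members, with exact 95% Clopper-Pearson intervals that cover counting error only. Control libraries averaged 10.7% ± 4.12 and nanocapsule libraries 8.30% ± 2.52 (SD, n = 2 each), a difference of -2.40 points (two-sided exact permutation test, p = 0.667). With 2 libraries against 2 the smallest p this test can give is 0.333. The difference turned to 0.509 points without Control 2. The share moved with depth: with every barcode thinned to 1000 UMIs it was 5.06% ± 0.0195 in control and 3.85% ± 0.511 in nanocapsule libraries, and the groups no longer overlapped (exact permutation p = 0.333). They also did not overlap at a minimum of 2000 UMIs, with means of 12.97% and 8.98%.

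Plasmacytoid cells made up a smaller share of members in the nanocapsule libraries. The share was 42.1% (20.3 to 66.5), 34.8% (21.4 to 50.2), 28.6% (8.39 to 58.1) and 16.0% (4.54 to 36.1), so the library groups did not overlap although the counting intervals did. The means were 38.4% ± 5.18 and 22.3% ± 8.89 (SD, n = 2), a difference of -16.2 points at the smallest possible exact permutation p of 0.333. With thinned barcodes the means were 73.5% and 35.4%, a wider difference of -38.0 points, from fewer members. Of immune barcodes, plasmacytoid cells made up 4.01% ± 1.03 in control and 1.74% ± 0.175 in nanocapsule libraries (exact permutation p = 0.333), and conventional cells 6.69% ± 3.09 and 6.56% ± 2.70 (exact permutation p = 1). A smaller share cannot be told from a change in the other cells of the denominator.

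The make-up of conventional cells also differed between libraries. Cd209a-led cells were 54.5%, 53.3%, 20% and 23.8% of conventional cells, with means of 53.9% ± 0.857 in control and 21.9% ± 2.69 in nanocapsule libraries (n = 2, exact permutation p = 0.333). Ccl22-led cells were 18.2%, 20%, 50% and 28.6% (means 19.1% ± 1.29 and 39.3% ± 15.2, exact permutation p = 0.333). Xcr1/Clec9a-led cells were 27.3%, 16.7%, 20% and 47.6% (means 21.97% ± 7.50 and 33.8% ± 19.5, exact permutation p = 0.667). The first pair of groups did not overlap between treatments, and the last did. The libraries behind these shares held 11, 30, 10 and 21 conventional cells.

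**Figure D4:**
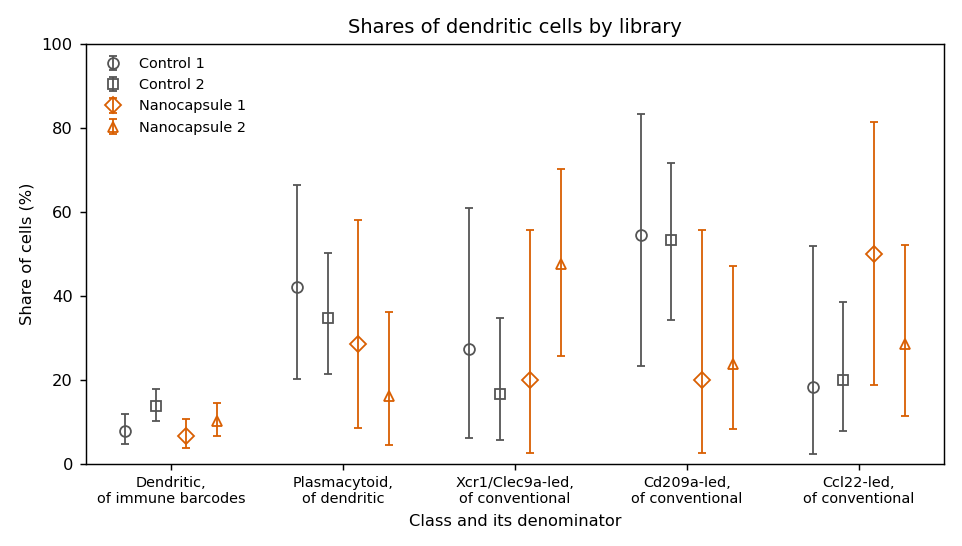
Shares in percent for each library, with 95% Clopper-Pearson intervals as bars: members among immune barcodes, plasmacytoid cells among members, and Xcr1/Clec9a-led, Cd209a-led and Ccl22-led cells among conventional cells. The Cd209a-led share lies at 54.5% and 53.3% in control and 20% and 23.8% in nanocapsule libraries, and the plasmacytoid share is lowest in Nanocapsule 2 at 16.0%.

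Between nanocapsule and control libraries, 9 of 4383 genes were called in the sums of all dendritic cells (0.205%), 8 higher (0.183%) and 1 lower (0.0228%). Here the test was edgeR's quasi-likelihood test on 2 sums against 2, with 2 residual degrees of freedom. Cxcl9 (chr5:92321347-92328079) stood at 32.1, 10.2, 255 and 405 CPM in all members and was higher by 4.52 (SE 0.49, adjusted p = 0.00025), from 1, 1, 3 and 12 cells. It was the 1 gene that DESeq2 also called (adjusted p = 2.1e-06), and the call held without each library, with an adjusted p of 0.044 without Control 2. Without Control 2 none of the other 8 passed.

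The other 7 genes that were higher came with values in which the groups did not overlap. Cst3 stood at 9216, 9080.2, 14366 and 18231 CPM and was higher by 0.93 (SE 0.15, adjusted p = 0.015), with an adjusted p of 0.19 without Control 2. Cd274 stood at 96.3, 151, 501 and 335 CPM and was higher by 1.72 (SE 0.33, adjusted p = 0.043), with an adjusted p of 0.051 without Control 1 and 0.2 without Control 2. Serpinb9, an inhibitor of granzyme B, stood at 56.2, 38.7, 202 and 171 CPM and was higher by 2.15 (SE 0.39, adjusted p = 0.039), with an adjusted p of 0.49 without Control 2. In these 3 genes every nanocapsule sum lay above every control sum. Serpinb6b, of the same inhibitor family, stood at 112, 55.0, 369 and 258 CPM and was higher by 2.14 (SE 0.38, adjusted p = 0.039), with an adjusted p of 0.49 without Control 2. Klf2, a factor of quiescence and trafficking in leukocytes, stood at 112, 65.2, 246 and 289.5 CPM and was higher by 1.84 (SE 0.36, adjusted p = 0.048), with an adjusted p of 0.6 without Control 2. Il12rb2, a chain of the interleukin 12 receptor, stood at 16.1, 8.15, 87.8 and 106 CPM and was higher by 3.38 (SE 0.54, adjusted p = 0.015), with an adjusted p of 0.51 without Control 2 and 0.87 without Nanocapsule 2. The call of Il12rb2 thus needed both of these libraries. Its UMIs came from 2, 3, 3 and 4 members, and 1 cell held 8 of 10 in Nanocapsule 1 and 1 cell 32 of 44 in Nanocapsule 2. Klf2 came from 3, 14, 6 and 14 members, but 1 cell held 12 of its 14 UMIs in Control 1. In Nanocapsule 1, 1 cell held 23 of 28 Klf2 UMIs, so the Klf2 value of that library rests mostly on 1 cell. Tpi1, a glycolytic enzyme, stood at 201, 216, 457 and 598 CPM and was higher by 1.44 (SE 0.28, adjusted p = 0.048), with an adjusted p of 0.051 without Control 1, 0.39 without Control 2 and 0.1 without Nanocapsule 2. Ly6c2 was the gene called lower, at 482, 664, 184 and 186 CPM and a log2 difference of -1.56 (SE 0.29, adjusted p = 0.039), with an adjusted p of 0.4 without Control 2. Most Ly6c2 UMIs came from plasmacytoid cells, 58, 290, 21 and 40 against 2, 36, 0 and 37 in conventional cells, beside the lower plasmacytoid share. Cst3 and Cd274, in contrast, were lower in plasmacytoid than in conventional cells. Within conventional cells alone neither passed edgeR's test between treatments. The log2 difference there was 0.68 for Cst3 (SE 0.18, adjusted p = 0.30) and 1.49 for Cd274 (SE 0.36, adjusted p = 0.22). Among conventional cells Cd274 was higher in Ccl22-led cells and Cst3 in Xcr1/Clec9a-led cells, while Serpinb9 and Serpinb6b were lower in Cd209a-led cells (3 UMIs against 78 and 0 against 129 in the other groups), whose share was lower in nanocapsule libraries. With DESeq2 the adjusted p was 0.11 and 0.44 for the latter pair. The part of these shares in the treatment differences was not tested.

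Within conventional cells 3 of 3739 genes were called (0.0802%), 2 higher (0.0535%) and 1 lower (0.0267%). Iigp1, an immunity-related GTPase of a family with close copies that interferon gamma induces, stood at 0, 5.54, 143 and 246 CPM, from 0, 1, 1 and 11 cells, and was higher by 5.46 (SE 0.70, adjusted p = 0.0055). DESeq2 called it too (adjusted p = 0.027), but the call was lost without Nanocapsule 2 (0.8). Il12rb2 stood at 0, 8.31, 109.8 and 115 CPM and was higher by 4.07 (SE 0.64, adjusted p = 0.018), with 32 of 44 UMIs of Nanocapsule 2 in 1 cell. Its adjusted p was 0.19 without Control 2 and 0.57 with DESeq2. Cd7 stood at 237, 279.7, 32.9 and 39.3 CPM, from 4, 16, 1 and 3 cells, and was lower by 2.72 (SE 0.43, adjusted p = 0.018), with an adjusted p of 0.16 without Control 2 and 0.16 with DESeq2. Cd7 was also the gene that marked Cd209a-led cells above, whose share was lower in nanocapsule libraries, and the part of that share was not tested.

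Interferon gamma response genes lay mostly higher in nanocapsule libraries. In conventional cells 13 of 14 tested (21 listed) had a positive log2 difference, with a median of 1.52 against 0.00 over all genes tested, and 1 was called. In 11 of the 14 both nanocapsule sums lay above both control sums, as in 13% of all genes tested. Cxcl9 stood at 45.2, 0, 318 and 440.4 CPM in conventional cells, with a log2 difference of 5.28 (SE 0.87, adjusted p = 0.14), and it was called without each library in turn but not with DESeq2 (adjusted p = 0.998). Ifi47, another interferon-induced GTPase, stood at 11.3, 44.3, 143 and 291 CPM, with a log2 difference of 2.76 (SE 0.52, adjusted p = 0.094). Over all members the list had 13 of 14 positive, a median of 1.38 against -0.00, and 11 of 14 not overlapping, as in 12.8% of all genes tested. Type I interferon stimulated genes had a smaller median, 0.22 in conventional cells and 0.35 in all members, with none called.

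Other lists held few or no calls. Class I presentation genes had a median of 0.58 in conventional cells, with 18 of 19 positive and 13 of 19 not overlapping in the higher direction, as in 13% of all genes tested, and none was called. B2m stood at 2452, 2398, 3997 and 3136 CPM, with a log2 difference of 0.61 (SE 0.22, adjusted p = 0.65). Class II genes had a median of 0.05, mature migratory markers 0.27, glycolysis genes 0.47, proliferation genes -0.24 and haem and oxidative stress genes 0.04, all with no call. Type 1 markers had 16 of 16 positive and a median of 0.74, with no call, and Irf8 stood at 441, 615, 604 and 1348 CPM, with a log2 difference of 0.96 (SE 0.35, adjusted p = 0.68). Xcr1/Clec9a-led cells, in which Irf8 was highest, were 47.6% of conventional cells in Nanocapsule 2 and 16.7% to 27.3% in the other libraries. The part of that share was not tested. Type 2 markers had a median of -0.68, with 9 of 13 not overlapping in the lower direction, as in 21.4% of all genes tested, and 1 call, Cd7. Plasmacytoid markers over all members had 28 of 30 negative, 19 of 30 not overlapping in the lower direction, as in 23.6% of all genes tested, and a median of -0.91, beside the lower plasmacytoid share. Ldha stood at 678, 753, 637 and 1051 CPM in conventional cells, with a log2 difference of 0.33 (SE 0.29, adjusted p = 0.99), and Cat at 169.5, 74.8, 10.98 and 28.8 CPM, with one of -1.98 (SE 0.57, adjusted p = 0.4).

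Plasmacytoid cells alone were not tested between treatments, because each nanocapsule library held 4 of them, under the minimum of 5 cells. Their values are given for the genes above. Cxcl9 stood at 0, 38.5, 0 and 0 CPM, Iigp1 at 0, 169, 0 and 303 CPM and Cd7 at 471, 793, 1096 and 787 CPM. Neither Cxcl9 nor Iigp1 separated the groups there, and Cd7 did not lie lower in the nanocapsule sums. The difference of the nanocapsule effect between the classes was tested with an interaction term on 8 sums, and 8 of 2304 genes were called (0.347%), 1 higher (0.0434%) and 7 lower (0.304%), of which 0 were called by DESeq2, where 12 genes had an unadjusted p under 0.05.

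**Figure D5:**
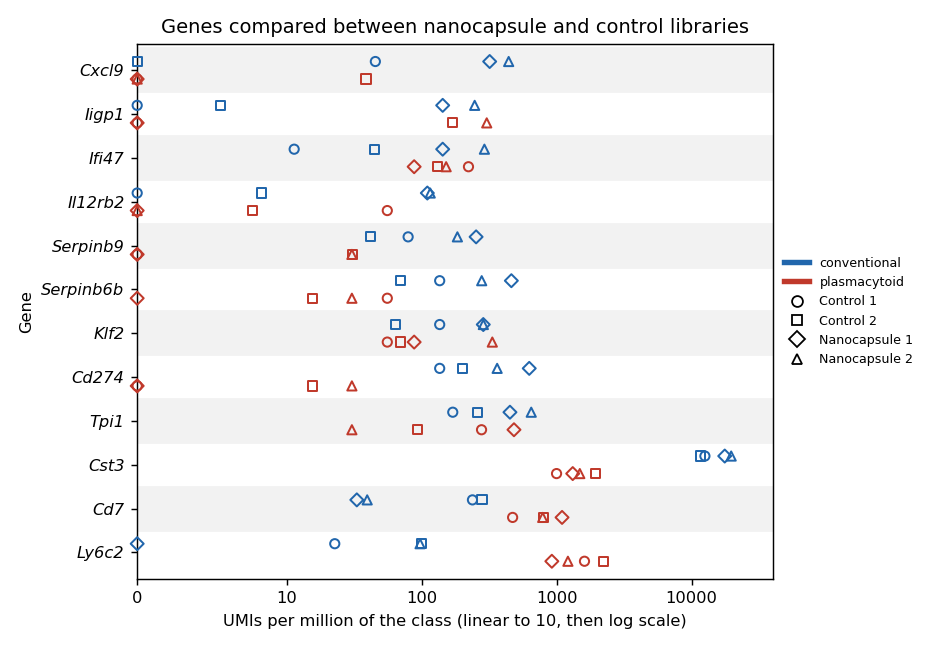
CPM of 12 genes in conventional and plasmacytoid cells of each library, on an axis that is linear up to 10 CPM and logarithmic above. Colour shows the class and marker shape the library. Cxcl9, Iigp1 and Ifi47 lie higher in both nanocapsule sums of conventional cells, Cd7 lies lower there but not in plasmacytoid cells, and Ly6c2 has its highest values in plasmacytoid cells.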

How the data were processed

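Droplet single cell RNA libraries of 4 mouse tumour samples (10x single cell 3-prime v2, per the labels) were analysed. The deposited matrices hold UMI counts of 32285 genes in all barcodes, unfiltered, with 98943390 to 140491491 UMIs per library. Per the submitters' processing notes the authors used Cell Ranger 2.1.1 and mm10, while the file headers name Cell Ranger 4. The gene annotation is not given in the sources used here, and gene positions come from GENCODE M21 (GRCm38), matched by ID for 32158 genes. Promoters are from RefSeq (GRCm38).

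Members were chosen with the marker limits given above. Members, classes and the 31 gene lists (494 genes, 3 of them not analysed here) were chosen with earlier results of these data known, and the 21 genes of the rule were left untested. UMI counts were summed per library and class, with at least 5 cells for a class within treatment and for each conventional group. The comparison of the dendritic classes and the interaction also used the plasmacytoid sums of 4 cells in each nanocapsule library. Sums were filtered with filterByExpr, TMM-normalized and tested with edgeR 4.0.16 (R 4.3.3) at a Benjamini-Hochberg adjusted p of 0.05. DESeq2 1.42.0 was the alternative tool. Shares were compared by exact permutation of libraries (SciPy 1.17.1).

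Genes named per fit were the 10 largest rises and falls among called genes with at least 100 CPM in the higher class and 1 direction in every library, or the 5 smallest p, plus up to 4 called members of each list by abundance and a fixed set. Not all of these are printed, and others are named where a count or share turns on them, chosen after their values were seen. Fits were tested on simulated data, in which all genes had the same spread around a shared mean profile, with no library or single-cell effect. Of genes changed by 2 log2 units, 64.6% were recovered in the fit of plasmacytoid against conventional cells (5416 genes), 60.9% between treatments in all members (4145 genes), 65.5% in conventional cells (3325 genes) and 80.4% in Ccl22-led cells (1640 genes). Of the calls, 6.12%, 4.61%, 6.90% and 5.03% were false, in the same order. Recovery where 1 cell holds most UMIs of a gene was not tested. Alternatives covered the tool, the filter, each library left out, the UMI minimum, the marker limits, thinning and blocks.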

Additional observations from a re-analysis of the deposited data

Results flagged for a closer look

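The change of a gene between nanocapsule and control libraries differed between plasmacytoid and conventional cells for 8 of 2304 genes in the interaction term of edgeR's fit (adjusted p by Benjamini-Hochberg), 7 of them lower in plasmacytoid cells relative to conventional ones. Each nanocapsule sum of plasmacytoid cells came from 4 cells, and DESeq2 called none of the 8, with 12 genes at an unadjusted p under 0.05.

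Ifitm3, an interferon-induced membrane protein that blocks viral entry and has close copies, had an adjusted p of 3.72e-05. It stood at 111, 793, 0 and 0 CPM in plasmacytoid cells, from 1, 6, 0 and 0 cells, and at 1356, 2080, 1966 and 2048 CPM in conventional cells. In Control 2, 1 plasmacytoid cell held 54 of its 103 UMIs. Lyz2 (adjusted p = 6.73e-05) stood at 0, 2318, 0 and 0 CPM in plasmacytoid cells, all of it from the 1 cell of Control 2 described above, and at 226, 255, 219.6 and 173 CPM in conventional cells. Without Control 2 its log2 difference of the effects turned to 0.23. Both results therefore rest on plasmacytoid sums that are 0 in the nanocapsule libraries.

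Cd7, the 1 gene with a higher effect in plasmacytoid cells, had a log2 difference of the effects of 3.14 (adjusted p = 0.00147). It was lower in the conventional cells of both nanocapsule libraries and not in the plasmacytoid ones. Its adjusted p was 0.37 without Control 1 and 0.13 without Control 2. Ly6a, the surface antigen Sca-1 (adjusted p = 0.00343), stood at 11.3, 279.7, 439 and 503 CPM in conventional cells, from 1, 6, 2 and 12 cells. Both nanocapsule sums were the higher ones there, but 1 cell held 39 of the 40 UMIs in Nanocapsule 1. In plasmacytoid cells Ly6a stood at 1718, 1925, 1666 and 727 CPM, and 1 cell held 21 of the 24 UMIs in Nanocapsule 2. Iigp1 and Cxcl9 each had an adjusted p of 0.00615. In plasmacytoid cells Cxcl9 had 5 UMIs, all in 1 cell of Control 2. Of plasmacytoid Iigp1, 1 cell held 20 of 22 UMIs in Control 2 and 1 cell held all 10 in Nanocapsule 2. In conventional cells of Nanocapsule 1, 1 cell held all 13 Iigp1 UMIs and 1 cell held 22 of 29 Cxcl9 UMIs. In Nanocapsule 2 the UMIs of Iigp1 and Cxcl9 came from 11 and 12 conventional cells.

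Isg15, a ubiquitin-like protein induced by interferon, and Ifi27l2a, an interferon-induced mitochondrial protein with close copies, each had an adjusted p of 0.0225. Isg15 had 5, 26, 0 and 0 UMIs in plasmacytoid and 4, 98, 40 and 73 in conventional cells. Ifi27l2a stood at 416, 693, 263 and 121 CPM in plasmacytoid and 158, 371, 692 and 419 CPM in conventional cells. Plasmacytoid sums of both genes were lower in each nanocapsule library than in each control library, and the conventional sums of Isg15 overlapped.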

How the results depend on the processing

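Of the values of single genes recomputed under the alternatives, 1614 stayed on their side of the threshold with their direction, 20 passed it newly, 121 lost it and 1 reversed, the interaction of Lyz2 (-11.2 to 0.23 when leaving out 1 library). Of the shares and counts of called genes, 73 stayed within their limits, 33 moved and 1 reversed, the dendritic share without Control 2 (0.509 points, with a range of -5.31 to 0.509 when leaving out 1 library). Both tallies of unchanged results include refits of unchanged data, which could not differ. Every member held at least 2482 UMIs, so the minimum of 2000 UMIs changed no member sum. The fits of conventional groups never used Control 1 or Nanocapsule 1, so leaving these out changed nothing. The difference in plasmacytoid share ranged from -9.87 to -22.4 points when leaving out 1 library and from -13.6 to -38.0 under the other alternatives.

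Thinning each cell to 1000 UMIs left 143 genes called between plasmacytoid and conventional cells, 264 between conventional cells and macrophages, 202 against monocytic barcodes, 2 between treatments in all members, 0 in the interaction, 30 in Ccl22-led, 10 in Xcr1/Clec9a-led and 8 in Cd209a-led cells. Fewer genes could be tested there: of 1295 calls between the dendritic classes 315 were tested, and 135 were among the 143. With only the 2 dendritic classes in the fit 519 genes were called. Leaving out 1 library gave 906 to 1226 calls between the dendritic classes, 1435 to 1989 against macrophages and 1048 (without Nanocapsule 2) to 1491 against monocytic barcodes.

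The treatment counts were the least stable. DESeq2 called 1 gene in all members, 1 in conventional cells and 0 in the interaction, against 336, 95 and 73 in Ccl22-led, Xcr1/Clec9a-led and Cd209a-led cells. With no filter on low counts 49 and 25 genes were called between treatments, and 270 and 235 in Xcr1/Clec9a-led and Cd209a-led cells. Leaving out 1 library gave 3 to 130 calls in all members, 7 to 53 in conventional cells and 1 to 8 in the interaction. In these fits the lone library of a group was assumed to vary like the other group.

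With the replicate number as a block, 37 genes were called in all members and 12 in conventional cells, among them all 9 and all 3 of the fit with no block. The deviations of same-numbered libraries correlated at 0.0856 over 4393 genes, so the numbers were not taken to pair the libraries. Without Control 2 or Nanocapsule 2 the comparisons of conventional groups had no residual degrees of freedom and were not run, and neither were the alternatives of a treatment test in plasmacytoid cells.

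Depth also limits these results. Sums held 22812 to 1495133 UMIs from 4 to 73 cells, so a gene at 0 in plasmacytoid cells may be present below detection. Intervals and bounds cover counting error, not the choice of cells.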
